A study of Mus musculus with 18 samples.

Results

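OSKM-ESCs are mouse embryonic stem cells (ESCs) kept in an undifferentiated culture by the sustained expression of the 4 reprogramming factors (OSKM, for Oct4, Sox2, Klf4 and c-Myc) in place of inhibitors and cytokine. The question addressed here was how their messenger RNA changed between day 25 and day 38 after the switch to that culture. The samples were chosen by their titles, as the 2 libraries of OSKM-ESCs at day 25 and the 2 at day 38, which are 4 of the 18 RNA-seq libraries of the series. All 55469 genes with a usable value in each library were examined.

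Every ESC library came from the Tet-On-OSKM/Oct4-GFP line, derived from blastocysts of a cross of C57BL/6 x 129S4/SvJae F1 mice with F2 mice of CBA/CaJ and C57BL/6J. It carries the doxycycline (DOX) responsive trans-activator M2rtTA in Rosa26, a single polycistronic OSKM transgene in Col1a1 and a GFP reporter under the Oct4 distal promoter. The OSKM-ESCs grew in N2B27 basal medium with DOX. The 2iL-ESCs, used as the same-day check, carried the same alleles and stayed in N2B27 with the MEK inhibitor PD0325901, the GSK3 inhibitor CHIR99021 and leukaemia inhibitory factor (LIF), at day 25 and day 38, 2 libraries each. In the paper, a smaller share of OSKM-ESCs than of 2iL-ESCs was positive for the GFP reporter. OSKM-ESCs at day 18 and mouse embryonic fibroblasts (MEF), at 2 libraries each, gave further reference levels. In the paper, the MEF used for reprogramming came from Tet-On-OSKM mice, which carry M2rtTA and the OSKM transgene. The line was derived, and then kept in 2iL medium, on feeder cells, which were MEF treated with mitomycin-c. The paper does not say whether feeders were kept after the switch of medium. The polycistronic transgene and the endogenous genes were counted together. The labels do not say whether the 2 replicates of a day were separate cultures or when each day was extracted and sequenced, so p-values measure only the spread between these libraries, and the day of culture and any batch of preparation cannot be told apart.

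Naive ESCs resemble the epiblast before implantation, and after implantation the epiblast passes through a formative state, in which the de novo DNA methyltransferases rise, before it can give rise to germ layers. At gastrulation WNT, FGF and Nodal signals at the posterior end induce the primitive streak, where the T-box factor T marks nascent mesoderm. Cells that stay in the caudal epiblast then express the Cdx genes and successive Hox genes and supply both the presomitic mesoderm, whose segmentation clock runs on Notch and Hes genes, and the posterior spinal cord, while retinoic acid made by the newly formed somites antagonises FGF8. In culture, GSK3 inhibition mimics WNT and MEK inhibition blocks FGF signalling to ERK.

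Promoter sequences of 5 genes named in the results are shown first, with short motifs that some genes of their groups hold there. They are RefSeq promoter windows on GRCm38.p6, each running from 250 bases before to 50 bases after the annotated start and printed 5′ to 3′ on the strand of the gene, with the motif in capitals on either strand. Msgn1, a transcription factor gene of presomitic mesoderm, lies on the minus strand with its window at chr12:11208899-11209198, and Sp5, a WNT-induced repressor gene, lies on the plus strand at chr2:70474673-70474972. Capitals in these mark the TCF/LEF motif CTTTGAT or CTTTGAA, which is bound by the nuclear effectors of WNT.

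Msgn1: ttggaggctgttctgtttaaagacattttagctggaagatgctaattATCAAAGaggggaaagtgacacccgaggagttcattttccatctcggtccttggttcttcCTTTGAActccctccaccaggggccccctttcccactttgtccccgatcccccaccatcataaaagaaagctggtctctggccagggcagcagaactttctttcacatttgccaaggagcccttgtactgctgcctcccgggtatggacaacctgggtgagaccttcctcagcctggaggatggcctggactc
Sp5: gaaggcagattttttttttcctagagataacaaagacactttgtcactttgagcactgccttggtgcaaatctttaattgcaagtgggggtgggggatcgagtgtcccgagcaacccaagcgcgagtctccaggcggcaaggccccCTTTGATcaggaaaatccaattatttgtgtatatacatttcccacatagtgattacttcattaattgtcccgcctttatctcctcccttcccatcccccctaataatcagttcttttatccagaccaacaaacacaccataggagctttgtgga

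Hormad1, a meiotic chromosome axis gene, has its window at chr3:95559427-95559726 on the plus strand, and Ddx4, a germ cell RNA helicase gene, at chr13:112652261-112652560 on the minus strand. Capitals mark the palindromic E-box CACGTG, a site of basic helix-loop-helix factors.

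Hormad1: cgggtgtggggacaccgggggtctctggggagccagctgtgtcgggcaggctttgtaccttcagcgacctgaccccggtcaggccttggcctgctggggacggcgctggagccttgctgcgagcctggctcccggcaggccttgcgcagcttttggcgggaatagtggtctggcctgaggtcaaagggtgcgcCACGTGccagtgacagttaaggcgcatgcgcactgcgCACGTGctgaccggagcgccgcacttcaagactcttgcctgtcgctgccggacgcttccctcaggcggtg
Ddx4: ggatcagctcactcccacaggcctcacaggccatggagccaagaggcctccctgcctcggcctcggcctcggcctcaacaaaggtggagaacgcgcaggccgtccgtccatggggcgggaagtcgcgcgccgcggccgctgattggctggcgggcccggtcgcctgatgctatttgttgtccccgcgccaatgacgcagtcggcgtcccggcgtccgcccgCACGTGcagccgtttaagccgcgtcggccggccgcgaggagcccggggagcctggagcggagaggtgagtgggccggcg

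Mt2, a metallothionein gene whose product binds zinc and other metals, has its window at chr8:94172368-94172667 on the plus strand. Capitals mark the metal response element TGCACNC or TGCGCNC, the site of the metal-sensing factor MTF1.

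Mt2: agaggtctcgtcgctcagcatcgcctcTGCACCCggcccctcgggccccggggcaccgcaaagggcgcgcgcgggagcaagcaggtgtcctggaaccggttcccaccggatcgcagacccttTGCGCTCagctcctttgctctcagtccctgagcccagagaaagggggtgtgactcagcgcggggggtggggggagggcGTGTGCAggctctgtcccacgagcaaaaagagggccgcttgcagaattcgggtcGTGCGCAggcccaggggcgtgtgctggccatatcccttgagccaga

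The TCF/LEF motif occurred in 8.65% of all 32851 RefSeq windows, the E-box in 7.15% and the metal response element in 25.7%. These matches describe letters in a window and no binding was measured.

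Expression was given by the authors as FPKM (mapped fragments scaled to transcript length and library total), and no read counts were used here, so that the depth of each library is unknown. Between 11681 and 12010 genes exceeded 1 FPKM in each of the 4 libraries. The identity of the cells was checked against fixed markers. All 10 pluripotency markers exceeded 1 FPKM in the 4 libraries. Their summed FPKM was 2002 and 1842 at day 25 and 1322 and 1334 at day 38. It was 3239 to 3496 in 2iL-ESC libraries of the same days and 1.1 and 2.1 in the 2 MEF libraries. Of these markers, Pou5f1 and Sox2 were counted together with the transgene. Pou5f1 made up 762 and 672 of the sum at day 25 and 586 and 587 at day 38. Utf1 made up 529 and 414 and then 155 and 143. The summed FPKM of 15 fibroblast markers was 206 and 185 at day 25 and 229 and 224 at day 38, which is 3.04% to 3.75% of the MEF level, with 7 to 9 of the 15 over 1 FPKM. Most of that sum was fibronectin, since Fn1 stood at 176 and 155 at day 25 and 192 and 189 at day 38, while the collagen gene Col1a1 was at 5.79 and 5.05 and 4.17 and 4.02. A sum over 5 mesoderm markers went from 17.4 and 16.7 to 203 and 208 FPKM, of which T made up 194 and 198 at day 38, that over 6 neural markers from 49.7 and 42.8 to 61.5 and 62.3, that over 6 primitive endoderm markers from 4.0 and 2.9 to 5.2 and 6.8, and that over 6 trophoblast markers from 21.6 and 21.2 to 50.9 and 49.7, of which Cdx2 made up 26.3 and 24.5 at day 38. In bulk RNA a larger share of cells of a type cannot be told apart from more RNA per cell.

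The day 38 libraries differed from the day 25 libraries more than replicates of a day differed from each other. On the log2(FPKM + 1) scale over 12849 genes, the Euclidean distance was 39.1 between the day 25 replicates, 32 between the day 38 replicates and 62.6 to 69.0 between days. Replicates shared 0 identical columns of values. With the limma model (log2(FPKM + 1), Benjamini-Hochberg adjusted p under 0.05), 1716 of the 12849 genes over 1 FPKM in at least 1 of the 4 libraries were upregulated at day 38 (13.4%) and 933 were downregulated (7.26%). With a fold of mean FPKM over 2 as well, 719 were upregulated (5.60%) and 421 downregulated (3.28%). The median log2 change over all tested genes was 0.10. Changes on this scale understate the fold of genes at low FPKM.

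Which genes passed depended on the replicates and on the scaling. Most groups of OSKM-ESC calls below are therefore given with their counts after a library was left out. The group counts of 2iL-ESCs and those of the ribosomal groups are given without them. Without day 25 replicate 2 the model called 5062 genes, without day 25 replicate 1 3337, without day 38 replicate 1 447 and without day 38 replicate 2 559, where the remaining library of a day was assumed to vary like the pair of the other day. No call turned its direction in any of these fits. The share of upregulated genes among the calls was 64.8%, and was 50.7% (1258 upregulated and 1221 downregulated) with median-ratio scaling and 47.2% (1152 and 1288) with quantile normalization, which move the median of all genes to 0.01 and 0.00. With 2 libraries a day an exact permutation test of a single gene cannot give a p below 0.333. A member that exceeds 1 FPKM at day 38 alone enters the test only if it rose, so counts over tested members are given with the number above 1 FPKM on both days, and with the libraries that do not overlap when no filter is applied. That background was 30.5% of 24089 genes with both day 38 values higher and 20.6% with both lower. Among the 11554 genes over 1 FPKM on both days, 12.5% were upregulated and 6.59% downregulated. Over the 12849 tested genes, the libraries of the 2 days did not overlap in 8565 (66.7%), in either direction. A lack of overlap given for single genes below is therefore common among tested genes.

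The primitive streak and nascent mesoderm genes rose together. Of 18 such genes, 14 passed the filter on low values and all 14 of these were upregulated. Of the 14, 7 exceeded 1 FPKM on both days, and these 7 were all called, with a median log2 change of 2.04 against 0.10 for all genes, while the other 7 did so at day 38 alone. Without the filter, 15 of the 18 had both day 38 libraries above both day 25 libraries and 1 had both below. The 4 untested genes stayed at or below 0.897 FPKM. When day 38 replicate 1 was left out, 10 of the 14 were called, and 10 without replicate 2.

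T encodes Brachyury and lies at chr17:8434423-8442496 (GRCm38, as are all gene positions below). It was at 13.8 and 13.3 FPKM in the day 25 libraries and at 194 and 198 in those of day 38, a log2 change of 3.76 ± 0.08 (SE, n = 2 per day, adjusted p = 0.00014). The 2 groups were far apart, and the day 18 level of 34.3 and 48.9 lay between them. Among the caudal homeobox genes, Cdx1 (chr18:61018862-61036199) went from 2.27 and 1.13 to 47.6 and 47.8 FPKM, a change of 4.21 ± 0.21 (adjusted p = 0.00063), and Cdx2 (chr5:147300805-147307270) from 0.690 and 0.643 to 26.3 and 24.5, a change of 3.99 ± 0.11 (adjusted p = 0.00016). CDX proteins activate Hox genes in the trunk, and Cdx2 is also a trophoblast factor, which places it among the trophoblast markers above. Both were low in the 2 day 25 libraries and high in the 2 day 38 libraries, with no overlap. The T-box gene Tbx6 (chr7:126781483-126785560), needed for paraxial mesoderm, stood at 0.164 and 0.109 FPKM at day 25 and 14.8 and 13.3 at day 38 (log2 change 3.73 ± 0.12, adjusted p = 0.00031). Msgn1 (chr12:11208360-11208972), which acts downstream of T and WNT in presomitic mesoderm, was at 0.109 and 0 and then 10.7 and 12.2 (log2 change 3.56 ± 0.14, adjusted p = 0.0004). For both genes the day 25 libraries were close to 0 and below the day 18 values of 0.404 and 0.507 for Tbx6 and 0.244 and 0.376 for Msgn1.

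Other members rose from lower levels. Mixl1, a homeobox gene of the streak, was at 0.252 and 0.307 and 1.76 and 1.90 FPKM on the 2 days, Evx1, an even-skipped homeobox gene of the posterior streak, at 0.120 and 0.0796 and 2.67 and 2.74, and Lhx1, a node and mesoderm gene, at 0.0827 and 0.0765 and 2.76 and 2.23. Eomes, which opens the mesendoderm programme, changed less, from 3.11 and 2.92 to 5.97 and 5.84 FPKM (log2 change 0.78 ± 0.11, adjusted p = 0.0095). Eomes and Mixl1 did not pass without either day 38 library, nor did Mesp1, at 0 and 0.0341 and 1.07 and 0.990 FPKM, without replicate 2. In the streak list the TCF/LEF motif was found in the windows of 3 of the 10 tested genes matched to RefSeq, namely Mesp1, Msgn1 and T, against 9.88% of 27025 genes overall.

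**Figure D1:**
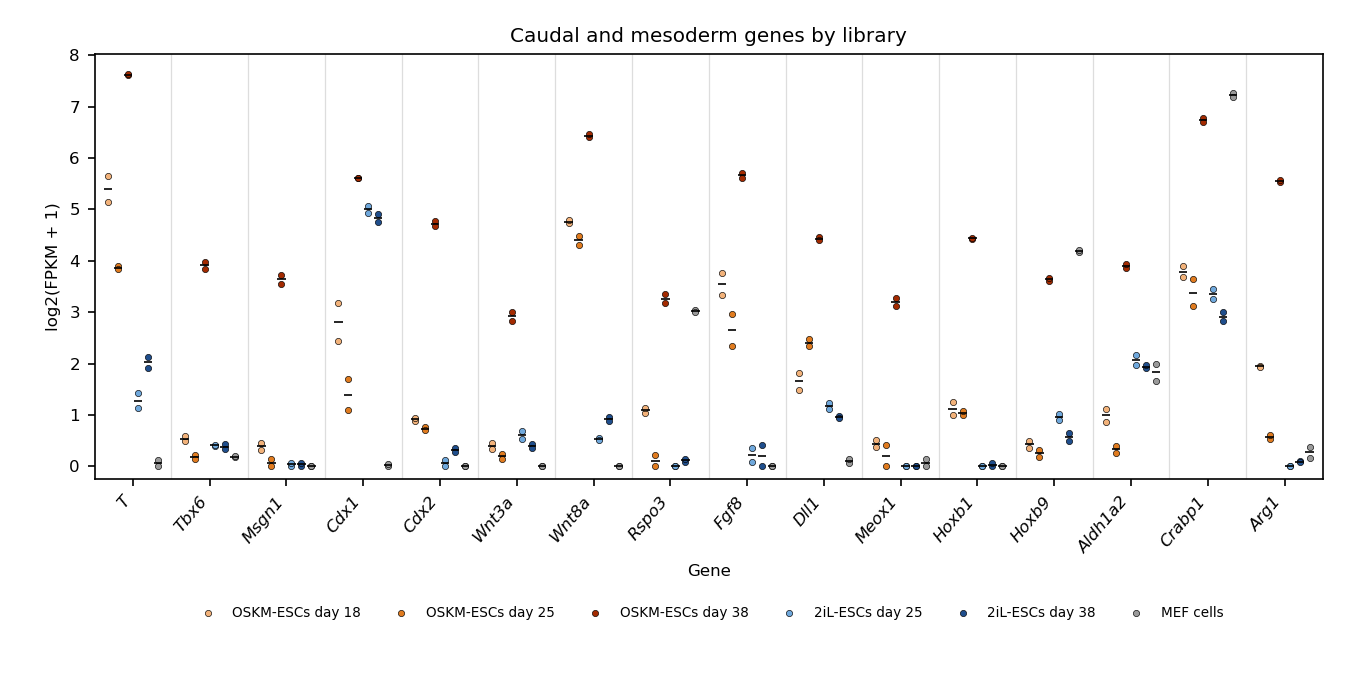
Levels of 16 caudal genes in OSKM-ESCs at day 18, 25 and 38, in 2iL-ESCs at day 25 and 38 and in MEF, on a log2(FPKM + 1) axis. Each point is 1 library and each bar the mean of a group. In every panel both day 38 OSKM-ESC libraries lie above both day 25 libraries, as for T at 194 and 198 against 13.8 and 13.3 FPKM.

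Genes of the Hox clusters, which give cells their position along the trunk, rose as a family. Of 39 Hox genes, 22 passed the filter and these 22 were upregulated. Only 5 exceeded 1 FPKM on both days, and all 5 were called, with a median log2 change of 1.35, so most of this count rests on genes that passed at day 38 alone. Without the filter, 28 of the 34 genes not at 0 throughout had both day 38 libraries above both day 25 libraries, and 2 had both below. The 17 untested genes stayed at or below 0.963 FPKM. The summed FPKM of the 39 genes was 8.7 and 14.1 at day 18, 14.8 and 14.2 at day 25 and 124.5 and 124.0 at day 38, and it was 5.0 to 9.5 in the 4 2iL-ESC libraries. MEF, which come from the trunk of the embryo, had 241.0 and 233.6. Without day 38 replicate 1 or 2, 17 and 20 of the 22 were called.

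The genes that rose ran from anterior to thoracic members. Hoxb1, an anterior member that is also expressed early in the streak, was at 1.01 and 1.10 FPKM at day 25 and 20.4 and 20.8 at day 38 (log2 change 3.39 ± 0.10, adjusted p = 0.00024), and was listed at 0 in both MEF libraries. Hoxb9, a thoracic member, was at 0.142 and 0.241 and 11.3 and 11.6 FPKM (log2 change 3.39 ± 0.12, adjusted p = 0.00036), near its MEF level of 17.0 and 17.4. On both days the 2 libraries of each gene were close and the days did not overlap. Hoxb3 moved from 0.410 and 0.335 to 10.3 and 10.2 and Hoxb2 from 0.943 and 0.624 to 10.5 and 11.0 FPKM. The most 5′ members were among the untested genes, and Hoxc13 was at 0.0692 and 0.342 at day 25 and listed at 0 in both day 38 libraries. Hoxaas3, an antisense RNA of the HoxA cluster, was listed at 0 in both day 25 libraries and was at 10.7 and 11.2 at day 38. Whether the counting used strand is not stated, so that reads of Hoxaas3 and of the genes on the opposite strand cannot be told apart.

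Segmentation and Notch genes also rose. This group, and the retinoic acid, WNT ligand, FGF ligand and full Hox groups, were assembled after the values had been seen. Of 26 genes, 22 passed the filter, 15 were upregulated and 3 downregulated. Of the 13 above 1 FPKM on both days, 7 were upregulated and 3 downregulated, with a median log2 change of 0.75. Without the filter 19 of 26 had both day 38 libraries higher and 4 had both lower, and the 4 untested genes stayed at or below 0.538 FPKM. Leaving out day 38 replicate 1 left 10 upregulated and 0 downregulated, and leaving out replicate 2 left 13 and 0.

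The Notch ligand gene Dll1 was at 4.55 and 4.07 FPKM at day 25 and 21.0 and 20.1 at day 38 (log2 change 2.02 ± 0.10, adjusted p = 0.00068), and Dll3, which dampens Notch signalling within the cell, at 2.47 and 2.15 and 16.6 and 15.2. The oscillating repressors of the clock followed, with Hes7 at 0.373 and 0.281 and then 6.61 and 6.98 and the related Hes3 at 0.321 and 0.346 and then 7.92 and 9.27. Lfng, a glycosyltransferase that modifies Notch, rose by 1.54 on the log2 scale. Meox1, a homeobox gene of the formed somite, was at 0 and 0.332 at day 25 and 8.66 and 7.74 at day 38. In each of these genes both day 38 libraries exceeded both day 25 libraries. The 3 that fell were Hes6 (30.7 and 28.6 to 16.6 and 16.1 FPKM), Ripply1 (2.91 and 2.71 to 1.36 and 1.35) and Tcf15 (55.1 and 46.3 to 34.4 and 30.4), the last a factor of both somites and primed epiblast, and these 3 calls were lost when either day 38 library was left out.

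Retinoic acid genes rose at the steps of synthesis, transport and breakdown. Aldh1a2, the main enzyme that makes retinoic acid in the trunk, was at 0.204 and 0.319 FPKM at day 25 and 13.5 and 14.2 at day 38 (log2 change 3.56 ± 0.12, adjusted p = 0.00031). The binding proteins Crabp1 (11.5 and 7.67 to 109 and 103 FPKM) and Crabp2 (14.4 and 12.4 to 84.0 and 85.0) had the highest levels, with log2 changes of 3.36 ± 0.18 and 2.57 ± 0.11. Stra6, the retinol transporter, was at 0.810 and 0.583 and 4.72 and 5.34 FPKM, and Cyp26a1, which degrades retinoic acid and is itself induced by it, at 2.12 and 1.75 and 9.15 and 8.53. No library of day 25 reached a day 38 value in these 5 genes. Of the 19 genes of the pathway, 14 passed the filter, 6 were upregulated and 1, the receptor gene Rarg (70.9 and 66.7 to 50.4 and 51.1 FPKM), was downregulated. Of the 11 above 1 FPKM on both days 4 rose and 1 fell, and 11 of 19 had non-overlapping higher values without the filter, against 2 lower. The 5 untested genes reached at most 0.819 FPKM. The 6 upregulated calls held without either day 38 library, and the call of Rarg did not.

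WNT ligands rose with a part of the WNT feedback targets. Of 23 genes for WNT ligands and R-spondins, 10 passed the filter, 7 were upregulated and 1 downregulated, 4 being above 1 FPKM on both days, of which 3 rose and 1 fell. Without the filter, 11 of 22 had both day 38 libraries higher and 6 had both lower, and the 13 untested genes reached at most 0.610 FPKM. Leaving out either day 38 library left 5 upregulated. Wnt3a, the ligand that maintains the caudal progenitors, was at 0.186 and 0.110 FPKM at day 25 and 7.04 and 6.09 at day 38 (log2 change 2.72 ± 0.14, adjusted p = 0.0007). Wnt8a, an early posterior ligand, was already at 21.3 and 18.9 and reached 83.8 and 87.1 (log2 change 2.04 ± 0.10, adjusted p = 0.0006). Both genes had day 38 libraries well above those of day 25. The R-spondin gene Rspo3, whose product stabilises WNT receptors, was at 0 and 0.163 and 8.0 and 9.16, close to its MEF level of 7.21 and 7.01. Of the non-canonical ligands, Wnt5a went from 0.615 and 0.471 to 4.40 and 4.27 and Wnt5b from 1.55 and 1.46 to 7.85 and 8.11 FPKM. Rspo1 fell from 2.83 and 3.09 to 0.790 and 1.46 FPKM, and did not pass without day 38 replicate 1.

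All 12 tested WNT feedback genes exceeded 1 FPKM on both days, 6 were upregulated and 1 downregulated, and the median log2 change was 0.66. The 2 untested genes reached at most 0.797 FPKM, and without the filter 8 of the 14 had both day 38 libraries higher and 3 had both lower. Sp5 was at 2.01 and 1.49 FPKM at day 25 and 14.9 and 15.9 at day 38 (log2 change 2.58 ± 0.13, adjusted p = 0.00068), Axin2, a scaffold of the complex that degrades beta-catenin, at 6.15 and 6.68 and 15.3 and 15.5, and Nkd1, an inhibitor of Dishevelled, at 1.65 and 1.83 and 7.82 and 7.66. Notum, a secreted WNT deacylase, was at 3.01 and 2.39 and 8.19 and 5.97. The remaining upregulated members were T and Cdx1. Tcf7l1, the TCF family member that represses WNT targets in ESCs, was downregulated from 76.4 and 69.7 to 31.4 and 27.7 FPKM (log2 change -1.28 ± 0.10, adjusted p = 0.002). Not every target moved, as Lef1 was at 28.3 and 28.3 and 28.8 and 23.6 (adjusted p = 0.5) and Ccnd1 at 63.3 and 66.3 and 73.7 and 76.7 (adjusted p = 0.13). The 6 calls were 5 without day 38 replicate 1, Notum being lost, and 6 without replicate 2. The TCF/LEF motif was in the windows of Sp5 and T among the 8 feedback genes matched.

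FGF ligands changed in both directions. Fgf8, the posterior ligand that keeps caudal cells undifferentiated, was at 6.83 and 4.07 FPKM at day 25 and 51.6 and 47.8 at day 38 (log2 change 3.01 ± 0.21, adjusted p = 0.0014). Its relative Fgf17 (4.22 and 3.94 to 10.6 and 9.81 FPKM) also rose. So did Fgf15 (3.23 and 3.44 to 10.7 and 13.1) and the caudal ligand Fgf3 (0.470 and 0.311 to 3.01 and 2.89). Fgf4, the main ligand of naive cells, fell from 34.8 and 38.1 to 25.0 and 22.5 (log2 change -0.60 ± 0.10, adjusted p = 0.017). The day 25 and day 38 libraries did not overlap in any of the 5. Of 22 FGF genes 8 passed the filter, 4 rose and 1 fell. Of the 7 above 1 FPKM on both days, 3 rose and 1 fell. Without the filter 8 of 19 were higher without overlap and 5 were lower, and the 14 untested genes reached at most 0.927 FPKM. Leaving out day 38 replicate 1 or 2 left 3 and 4 upregulated genes and 0 downregulated, since Fgf4 failed in both fits and Fgf17 in the first.

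The largest change of any gene selected by size was that of Arg1 (chr10:24915221-24927484), the urea cycle enzyme arginase, which was at 0.449 and 0.533 FPKM at day 25 and 45.4 and 46.6 at day 38 (log2 change 4.98 ± 0.10, adjusted p = 0.00014). It was at 2.88 and 2.84 at day 18 and at or below 0.304 FPKM in the 2iL-ESC and MEF libraries. Aplnr, the apelin receptor of early mesoderm, went from 0.127 and 0.0699 to 10.0 and 11.0 FPKM. Of the 480 genes over 2-fold that had a mean of 5 FPKM or more on the higher day, no overlap and an approved name, 317 were upregulated and 163 downregulated, and T, Cdx1, Cdx2, Tbx6, Hoxaas3, Msgn1, Aldh1a2, Hoxb1, Aplnr, Hoxb9 and Crabp1 followed Arg1 as the 12 largest increases.

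Genes of the neural lineage that passed the test were higher. Of 18, 13 passed the filter and 11 were upregulated with 0 downregulated, 9 were above 1 FPKM on both days and 7 of these rose. The median log2 change of the 9 was 0.91, and 13 of 16 were higher without overlap and without the filter, against 0 lower. The 5 untested genes reached at most 0.508 FPKM. Leaving out day 38 replicate 1 or 2 left 6 and 7 of the 11. In 2iL-ESCs 3 of 7 tested rose and 0 fell, the sum of the 6 neural markers there went from 50.6 and 53.9 to 71.0 and 72.9 FPKM, and the difference between the media was called as higher in OSKM-ESCs in 9 of 13 genes and as lower in 0. Fabp7, a radial glia fatty acid binding protein gene, was at 0.704 and 0.563 FPKM at day 25 and 10.9 and 11.3 at day 38 (log2 change 2.89 ± 0.12, adjusted p = 0.00042), and Ptn, the growth factor pleiotrophin, at 7.58 and 10.2 and 38.5 and 39.5. The neural regulator Pax6 was low on both days, at 1.25 and 1.10 and 1.22 and 1.53 (adjusted p = 0.59), and the neuronal tubulin Tubb3 was at 32.6 and 24.8 and 29.3 and 28.9 (adjusted p = 0.88).

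Among genes of the switch from epithelial to mesenchymal cells, 12 of 14 passed the filter, 7 rose and 1 fell, and 10 were above 1 FPKM on both days, of which 6 rose and 0 fell. Without the filter 11 of the 14 were higher without overlap and 3 lower. Snai1, the repressor that starts the switch, was at 2.17 and 2.07 FPKM at day 25 and 7.15 and 6.59 at day 38 (log2 change 1.34 ± 0.11, adjusted p = 0.0022). N-cadherin, Cdh2, went from 3.52 and 5.39 to 15.4 and 16.7 and E-cadherin, Cdh1, from 168 and 172 to 101 and 99.7 FPKM (log2 changes 1.67 ± 0.18 and -0.76 ± 0.08). E-cadherin thus remained at a higher FPKM than N-cadherin in each of the 4 libraries. Of 19 simple epithelial genes 17 passed, 4 rose and 7 fell, all among the 16 above 1 FPKM on both days, and 7 were higher and 10 lower without overlap when no filter was applied. In 2iL-ESCs 0 of 17 rose and 8 fell. In OSKM-ESCs, without day 38 replicate 1 or 2 0 of the 7, Cdh1 among them, passed. Those fits left 4 and 5 of the 7 upregulated mesenchymal genes.

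Several groups outside development were higher as well. Of 13 MHC class I and antigen presentation genes 11 passed the filter and 9 rose, 8 of them among the 10 above 1 FPKM on both days, whose median log2 change was 0.86, and without the filter 9 were higher without overlap and 1 was lower. The immunoproteasome subunit Psmb8 was at 2.08 and 1.07 FPKM at day 25 and 16.1 and 14.2 at day 38 (log2 change 2.68 ± 0.21, adjusted p = 0.0017), and the peptide loading protein Tapbp at 9.49 and 9.69 and 31.6 and 29.7. Their day 18 levels were 9.21 and 8.14 and 22.6 and 28.2, so that day 25 was the lowest of the 3 days for both. Without either day 38 library 4 of the 9 passed.

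Of 18 targets of ATF4 and the integrated stress response, 17 passed the filter and 10 rose with 0 falling, all of these among the 16 above 1 FPKM on both days, and the median log2 change of the 16 was 0.55. Without the filter 14 were higher without overlap and 2 lower. Against day 18, 6 of 17 were higher at day 38 and 1 was lower, with a median of 0.14. Chac1, a glutathione-degrading enzyme induced by ATF4, was at 7.83 and 7.60 FPKM at day 25 and 38.3 and 39.1 at day 38 (log2 change 2.19 ± 0.09, adjusted p = 0.00042), Asns, asparagine synthetase, at 129.6 and 139 and 245 and 256, and Atf3, a transcription factor of the response, at 1.19 and 1.34 and 5.60 and 5.49. Leaving out day 38 replicate 1 or 2 left 3 and 4 of the 10, and Asns passed in neither fit.

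Of 35 imprinted genes outside the Dlk1-Dio3 locus, 28 passed the filter, 11 rose and 1 fell, and the 11 were among the 25 above 1 FPKM on both days. Without the filter 22 were higher without overlap and 9 lower. With median-ratio scaling 10 rose and 4 fell. Plagl1, a zinc finger regulator of an imprinted network, was at 2.87 and 3.05 FPKM at day 25 and 15.2 and 17.3 at day 38 (log2 change 2.12 ± 0.11, adjusted p = 0.00074), Peg3 at 14.5 and 17.2 and 59.5 and 53.8, and the growth factor Igf2 at 14.5 and 16.1 and 35.6 and 37.0. The G protein gene Gnas was at 71.0 and 80.7 and 201 and 302, a wide spread at day 38, and its 2iL-ESC levels went the other way, from 106 and 107 to 63.4 and 47.8. Without day 38 replicate 1 or 2, 5 and 6 of the 11 passed. Single genes of the cell cycle moved in the same span, with the D-type cyclin Ccnd2 at 2.39 and 2.72 and then 17.3 and 17.8. Cdkn2a, the locus of the CDK inhibitor p16, was at 7.69 and 7.60 and then 1.42 and 1.31.

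The de novo DNA methylation machinery fell. Dnmt3l (chr10:78041947-78063622), the catalytically inactive cofactor of DNMT3A and DNMT3B, was at 82.9 and 75.4 FPKM at day 25 and 11.0 and 11.5 at day 38, a log2 change of -2.71 ± 0.10 (SE, n = 2 per day, adjusted p = 0.00034). The enzymes Dnmt3b (366 and 358 to 154 and 158 FPKM) and Dnmt3a (90.8 and 76.4 to 39.5 and 33.1) changed by -1.21 ± 0.07 and -1.18 ± 0.13, and Tet1, which oxidises 5-methylcytosine, by -0.93 ± 0.10 (29.2 and 32.9 to 15.7 and 16.0 FPKM). In these 4 genes every day 38 library was below every day 25 library. The day 18 levels, 144 and 155 for Dnmt3b and 37.5 and 35.0 for Dnmt3a, were near those of day 38, so that day 25 was the highest of the 3 days. Genes of maintenance methylation did not pass the test, with Dnmt1 at 86.0 and 83.4 and 91.6 and 92.4 (adjusted p = 0.32) and Uhrf1 at 148 and 136 and 155 and 153 (adjusted p = 0.34). Zfp57, which protects methylation at imprinted regions, was upregulated from 78.1 and 83.7 to 127 and 132 FPKM (log2 change 0.67 ± 0.08, adjusted p = 0.0067). All 13 genes of the group were tested and above 1 FPKM on both days, 1 rose and 4 fell, and 5 were higher and 7 lower without overlap. Leaving out either day 38 library left 0 rising and 3 falling, as the calls of Zfp57 and Tet1 were lost.

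Germline genes that are silenced by promoter methylation in somatic cells fell with the machinery. Of 20, 11 passed the filter and 8 were downregulated with 0 upregulated. Of the 11, 2 exceeded 1 FPKM on both days and both fell, while 9 did so at day 25 alone. Without the filter, 15 of 20 had both day 38 libraries below both day 25 libraries and 0 had both above, and the 9 untested genes stayed at or below 0.721 FPKM. Without either day 38 library 5 of the 8 passed. Mael, a piRNA pathway gene, was at 2.73 and 3.47 FPKM at day 25 and 0.142 and 0.286 at day 38 (log2 change -1.75 ± 0.17, adjusted p = 0.0032), Ddx4 at 3.31 and 4.28 and 0.993 and 0.797, and Tex19.1, a germline and placenta gene, at 14.1 and 13.7 and 5.07 and 5.41. Rpl10l, a testis retrogene of ribosomal protein RPL10, was at 6.83 and 8.54 and 1.47 and 1.33, and reads of so similar a copy may be divided between the 2 genes. Hormad1 went from 1.28 and 1.49 to 0.216 and 0.248 FPKM (log2 change -0.95 ± 0.16, adjusted p = 0.016), and it did not pass without either day 38 library, nor did Mov10l1 and Tdrd1. The E-box was in the windows of 7 of the 11 tested germline genes, all of which matched RefSeq, against 8.09% of 27025 genes. The 7, counted whether called or not, were Ddx4, Hormad1, Mael, Mov10l1, Sycp1, Sycp3 and Tdrd1. Sycp3 was not called (log2 change -0.745, adjusted p = 0.176).

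**Figure D2:**
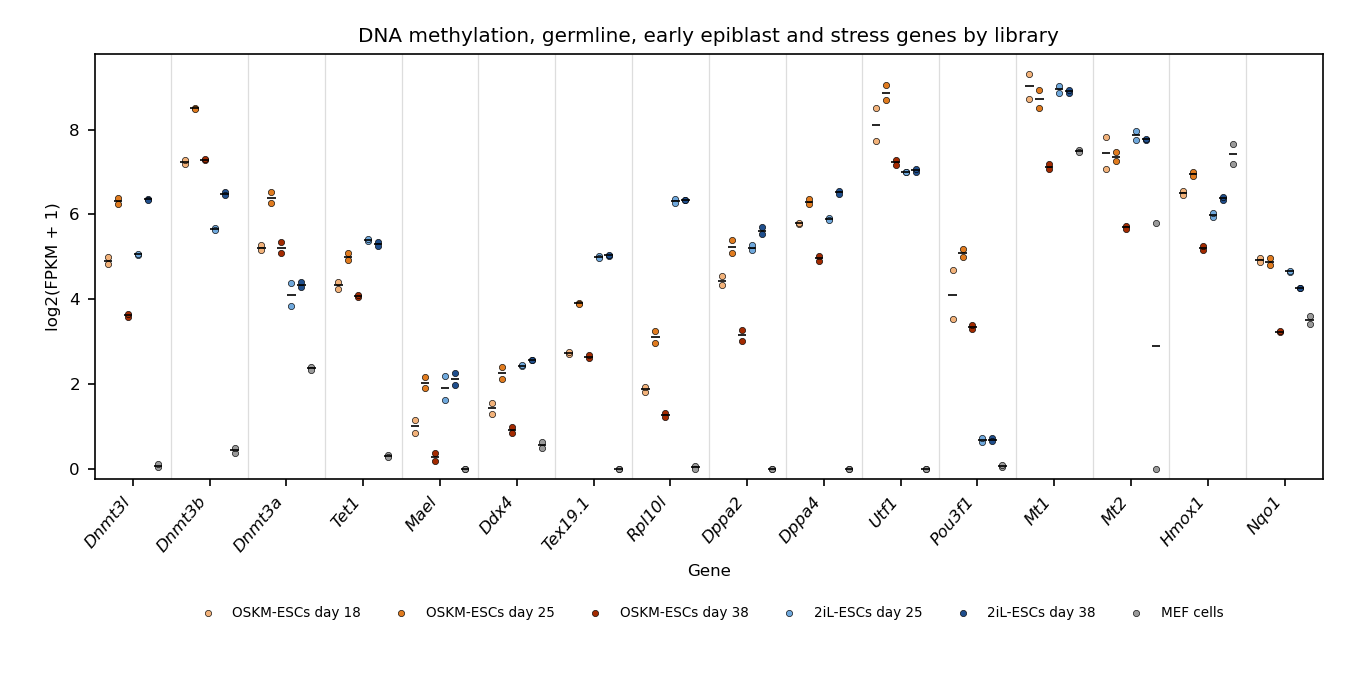
Levels of 16 genes of DNA methylation, germline, naive and formative pluripotency and metal or oxidative stress response, on a log2(FPKM + 1) axis, for OSKM-ESCs at day 18, 25 and 38, 2iL-ESCs at day 25 and 38 and MEF. Points are libraries and bars are group means. Both day 38 OSKM-ESC libraries lie below both day 25 libraries in each panel, and Dnmt3l moves the other way in 2iL-ESCs, from 31.9 and 32.5 to 81.5 and 80.0 FPKM.

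Pluripotency genes did not move as a block. The 4 factors were counted from transgene and endogenous transcripts together. Klf4 was at 37.3 and 29.4 FPKM at day 25 and 60.5 and 54.8 at day 38 (log2 change 0.78 ± 0.14, adjusted p = 0.017), and Myc at 113 and 102 and 141 and 135 (0.36 ± 0.09, adjusted p = 0.043). Sox2 was at 105 and 108 and 124 and 119.7 (adjusted p = 0.14) and Pou5f1, which encodes Oct4, at 762 and 672 and 586 and 587 (adjusted p = 0.07). The calls of Klf4 and Myc were lost when either day 38 library was left out, as they were without the filter or with all 9 groups in a single fit, and that of Myc also with median-ratio scaling, quantile normalization, TPM or no trend in the model. Of 23 core naive factors 22 passed the filter, 21 of them on both days, and 3 rose and 9 fell. In 2iL-ESCs 5 of 23 rose and 11 fell over the same days, with a median log2 change of -0.20 there and -0.19 in OSKM-ESCs, and the difference between the media was called as higher in 8 and as lower in 8. Without the filter 7 of the 23 were higher without overlap in OSKM-ESCs and 13 lower. The 3 that rose were Nanog, from 22.4 and 28.1 to 52.6 and 55.0 FPKM (log2 change 1.07 ± 0.13, adjusted p = 0.0057), its target Esrrb, from 23.9 and 27.7 to 47.8 and 57.9 (1.01 ± 0.13, adjusted p = 0.0077), and Tfcp2l1, from 2.57 and 3.12 to 5.16 and 4.77 (0.64 ± 0.13, adjusted p = 0.026). In both 2iL-ESC days these 3 genes were at much higher levels, with Nanog at 252 and 279 and 218 and 199.

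Among the 9 that fell, the paired chromatin factors Dppa2 and Dppa4 went from 32.8 and 41.1 to 8.72 and 7.03 and from 74.7 and 81.0 to 29.0 and 31.4 FPKM (log2 changes -2.09 ± 0.15 and -1.34 ± 0.10). Utf1, a chromatin factor of primed and naive cells, went from 529 and 414 to 155 and 143 (log2 change -1.65 ± 0.13, adjusted p = 0.0019), Gdf3 from 31.9 and 35.4 to 16.5 and 14.4, and Zfp42, which encodes REX1, from 15.8 and 15.7 to 7.98 and 9.17. No day 38 library reached a day 25 value in these 5. Of the 3 that rose and the 9 that fell, 1 and 4 passed without day 38 replicate 1 and 0 and 5 without replicate 2. Nanog, Tfcp2l1, Tet1 and Zfp42 failed in both of these fits and Esrrb in the second. The untested naive gene reached at most 0.916 FPKM. Formative and primed epiblast genes, of which 18 of 19 were tested and all 18 exceeded 1 FPKM on both days, had 4 higher and 8 lower, with a median log2 change of -0.38. Without the filter 5 were higher without overlap and 11 lower. Against day 18 the same 18 genes had 8 higher and 1 lower, with a median of 0.29, and in 2iL-ESCs between day 25 and day 38 5 of 14 rose and 1 fell. Pou3f1, which encodes OCT6, was at 31.0 and 35.2 FPKM at day 25 and 8.77 and 9.52 at day 38 (log2 change -1.75 ± 0.11, adjusted p = 0.00099) and Zic2 at 69.1 and 69.9 and 36.9 and 36.5, and the others that fell included Dnmt3l, Dnmt3b and Dnmt3a. Otx2 and Fgf5, further genes of that state, were at 12.1 and 12.5 and 13.7 and 14.6 (adjusted p = 0.2) and at 4.08 and 6.10 and 3.64 and 2.41 (adjusted p = 0.12). Without either day 38 library 4 of the 8, Zic2 not among them, passed as lower and 2 of the 4 as higher.

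Metallothionein and oxidative stress genes fell as a group. All 12 exceeded 1 FPKM on both days, 9 were downregulated and 0 upregulated, and the median log2 change was -1.0. Without the filter 10 of the 12 had both day 38 libraries lower and 1 had both higher. Mt1 was at 492 and 362 FPKM at day 25 and 133 and 145 at day 38 (log2 change -1.60 ± 0.15, adjusted p = 0.0031) and Mt2 at 175 and 153 and 52.1 and 49.6 (-1.67 ± 0.10, adjusted p = 0.00095). The NRF2 targets Hmox1, heme oxygenase, and Nqo1, a quinone reductase, went from 127 and 119 to 34.5 and 37.2 and from 26.9 and 30.3 to 8.33 and 8.51 FPKM. In all 4 genes day 38 was below day 25 in every library and also below the day 18 level, which was 92.3 and 87.1 for Hmox1. Without day 38 replicate 1 or 2, 4 of the 9 passed, Gclm and Srxn1 not among them. The metal response element was in the windows of Gclm, Gstm1, Mt1, Mt2 and Srxn1, 5 of the 9 matched genes, against 28.2% of genes overall.

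Further large decreases had no list in common. Wt1, the Wilms tumour factor of kidney and mesothelium, was at 13.3 and 13.3 FPKM at day 25 and 1.34 and 1.34 at day 38 (log2 change -2.61 ± 0.11, adjusted p = 0.00042). Gadd45g, a growth arrest gene, was at 24.7 and 23.9 and 4.08 and 3.65, Rhox5, an X-linked homeobox gene, at 93.2 and 84.0 and 17.6 and 21.1, and Enox1 at 9.15 and 8.51 and 1.32 and 1.02. Malat1, an abundant nuclear RNA, was listed at 22.3 and 21.7 FPKM at day 25 and at 0 in both day 38 libraries, at 0 in 1 of the 2 day 18 libraries and at 0 in 1 of the 2 MEF libraries. The mitochondrial gene mt-Atp6 was listed at 719 and 2209.9 at day 25 and at 0 in the day 38 and day 18 libraries. Since every cell uses these genes, a listed 0 can be a failed estimate, and no fold is given. Of all called genes, 37 were listed at 0 on a whole day, 23 of them at day 25 and 14 at day 38. On the other day, 7 of the 37 had a mean over 5 FPKM.

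The same span was measured in 2iL-ESCs as a check on the day. Between day 25 and day 38, 1355 of 12492 genes were upregulated (10.8%) and 1888 downregulated (15.1%) in 2iL-ESCs, with a median log2 change of -0.04, and 85 (0.680%) and 328 (2.63%) with a fold over 2. Of the 1716 genes upregulated in OSKM-ESCs, 1406 were tested in 2iL-ESCs, where 144 were also upregulated and 247 downregulated. Their median change was 0.72 in OSKM-ESCs and -0.07 in 2iL-ESCs. Of the 933 downregulated genes 827 were tested, 220 were also downregulated and 106 upregulated, with medians of -0.71 and -0.09. The difference between the 2 changes was itself tested over 13738 genes in a model of the 8 libraries, and was called in 2631 genes as higher in OSKM-ESCs (19.2%) and in 1232 as lower (8.97%). It was called with the same sign for 1351 of the 1716 upregulated genes and for 605 of the 933 downregulated ones. Since these genes were selected by the OSKM-ESC change, which enters the difference, the last counts are a description.

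In 2iL-ESCs the caudal genes were low on both days or did not follow the OSKM-ESCs. T stood at 1.18 and 1.69 FPKM at day 25 and 3.37 and 2.79 at day 38, a log2 change of 0.75 (adjusted p = 0.023), and the difference from the OSKM-ESC change was 3.01 (adjusted p = 0.00014). Cdx1 was at 32.6 and 29.4 and 26.0 and 29.0, so that its day 38 level in OSKM-ESCs exceeded the 2iL-ESC level while its day 25 level lay far below it. Dnmt3l rose in 2iL-ESCs, from 31.9 and 32.5 to 81.5 and 80.0 FPKM (log2 change 1.30, adjusted p = 0.0012), a difference of -4.01 (adjusted p = 7.7e-06), and Enox1 did likewise, from 3.21 and 2.43 to 12.5 and 13.3. Of the 5 streak genes tested in 2iL-ESCs 1 rose and 1 fell, of the 3 Hox genes 0 rose and 1 fell, and of the 12 metallothionein and oxidative stress genes 3 rose and 5 fell. Of 28 cytosolic ribosomal protein genes 17 rose in 2iL-ESCs and 1 in OSKM-ESCs, and of 22 ribosome biogenesis genes 11 rose in 2iL-ESCs and 0 in OSKM-ESCs, where 2 fell. The difference between the media was called in 0 of the 28 as higher in OSKM-ESCs and in 2 as lower, and in 0 and 11 of the 22.

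**Figure D3:**
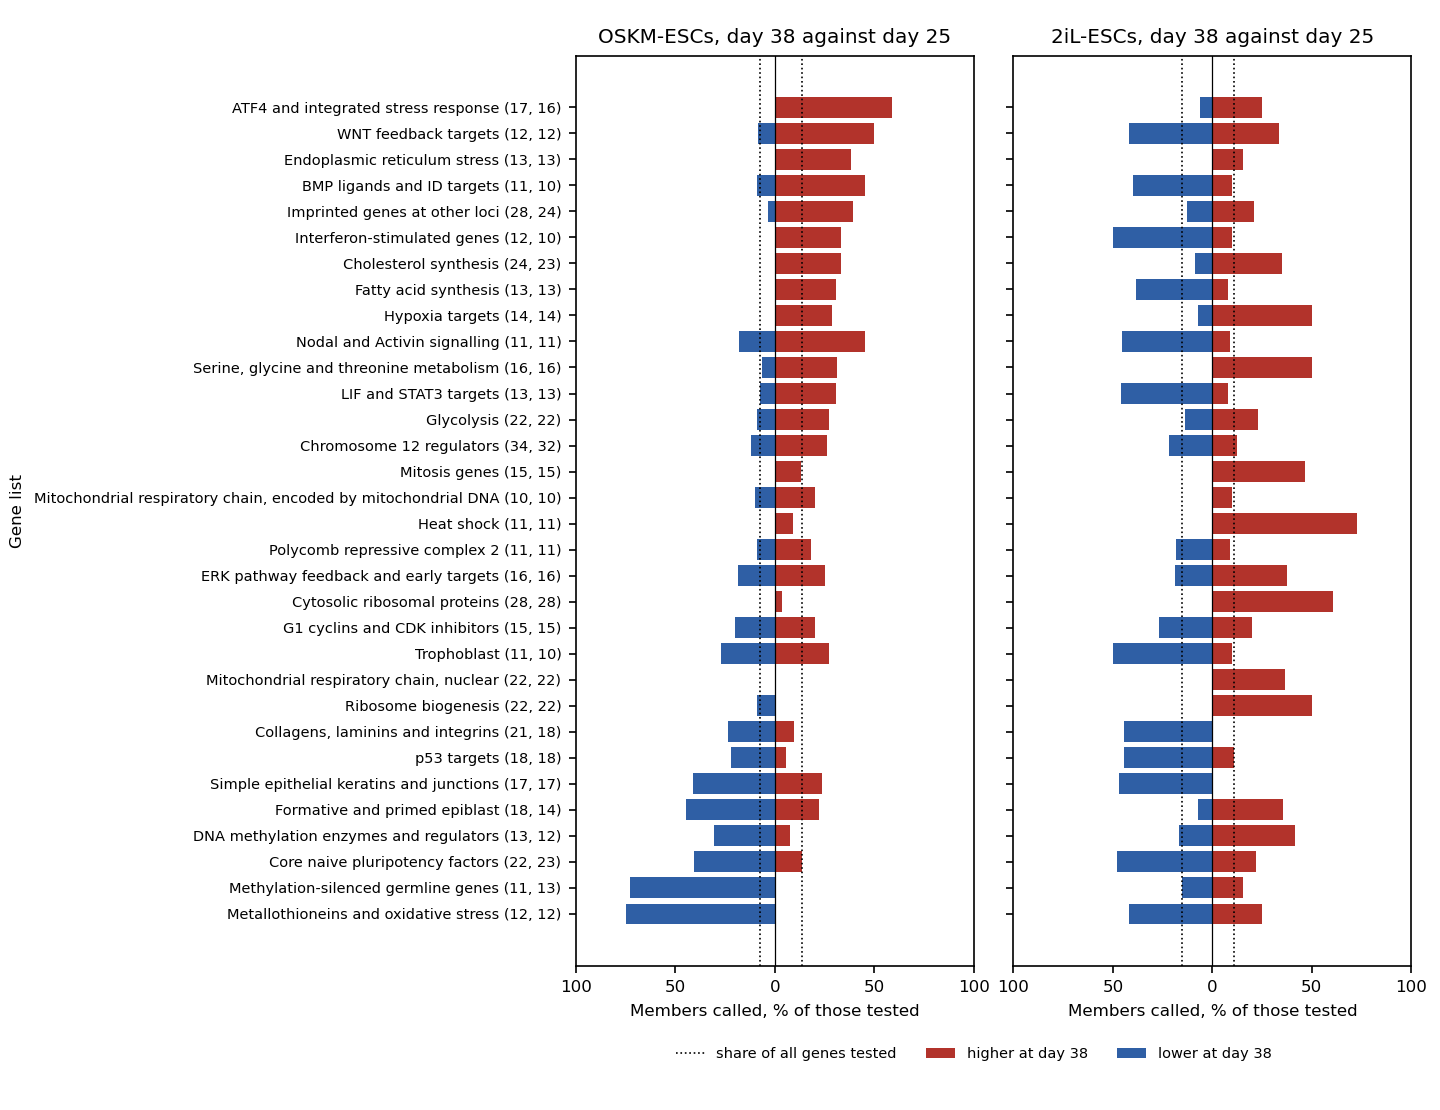
Share of the tested genes of each group called upregulated (to the right) or downregulated (to the left) between day 25 and day 38 in OSKM-ESCs and in 2iL-ESCs, in percent, for groups with 10 or more genes tested in both, with the numbers tested in brackets. Dotted lines give the share of all tested genes, 13.4% and 7.26% in OSKM-ESCs, and the metallothionein and oxidative stress group has the longest bar to the left in OSKM-ESCs, 9 of 12.

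**Figure D4:**
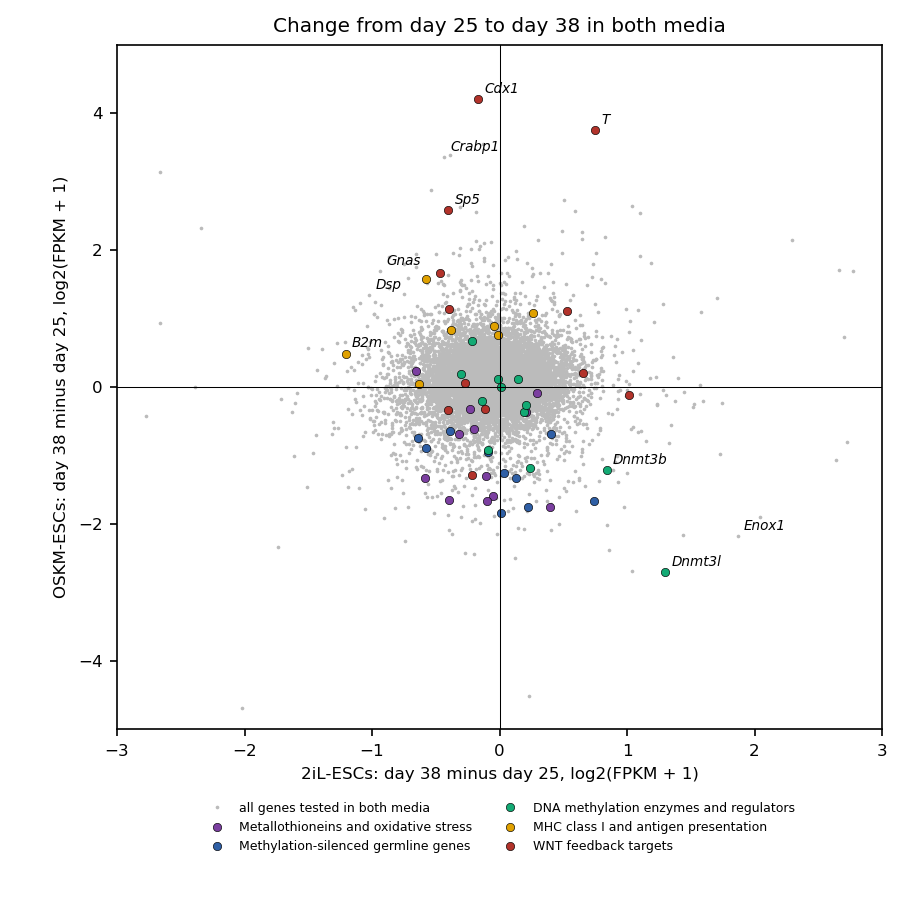
Log2 change from day 25 to day 38 in OSKM-ESCs (vertical) against that in 2iL-ESCs (horizontal) for the 11603 genes tested in both, each point a gene. A total of 9 genes lie outside the axes, among them mt-Atp6 and mitochondrial tRNA genes, T and Cdx1 lie at the top, and Dnmt3l and Enox1 lie low and to the right.

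The distance between libraries was 54.4 to 64.6 from day 18 to day 25 and 62.4 to 66.9 from day 18 to day 38, beside 62.6 to 69.0 from day 25 to day 38. Compared with day 18, 2608 of 12757 genes were upregulated at day 38 (20.4%) and 1584 downregulated (12.4%). This comparison shares its day 38 libraries with the one above, so the values are only set side by side. T changed by 2.23 against 3.76, Cdx2 by 3.80 against 3.99, Tbx6 by 3.37 against 3.73, and Hoxb1 by 3.31 against 3.39. Crabp1 changed by 2.95 against 3.36. For Dnmt3b the changes were 0.06 from day 18 and -1.21 from day 25, for Utf1 -0.89 and -1.65, and for Mt1 -1.89 and -1.60. T, Cdx2, Tbx6, Hoxb1 and Crabp1 passed against either earlier day, and Dnmt3b passed against day 25 but not against day 18 (adjusted p = 0.62).

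Genes of chromosome 12 were higher as a whole. Their median log2 change from day 25 to day 38 was 0.31 over 470 tested genes, against 0.10 for all genes and 0.01 to 0.17 for the other 19 chromosomes. Without the filter on low values the excess of chromosome 12 over all genes was 0.053, in place of 0.208. The medians of 0.31 for chromosome 12 and 0.10 for all genes correspond to folds of 1.24 and 1.07 in FPKM + 1. Of the 470, 126 were upregulated (26.8%, against 7.8% to 16.7% on the other chromosomes) and 26 were downregulated, and 77.4% had a positive change, against 51.4% to 70.7%. Taken per library, the chromosome 12 median less that of all genes, relative to the day 25 mean, was -0.03 and 0.03 in the day 25 libraries and 0.21 in each day 38 library. The spread between replicates was 0.029 (pooled SD), and no p-value is given because genes of a chromosome are not replicates.

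The shift was spread along the chromosome. In windows of 20 Mb the medians were 0.24, 0.31, 0.39, 0.31, 0.32 and 0.29, with 48 to 120 genes each. By level of expression, the median on chromosome 12 was 0.20 for the lowest class of genes, 0.37 for the middle and 0.30 for the highest, against 0.15, 0.14 and 0.02 for the genes of the other chromosomes. In 2iL-ESCs chromosome 12 had a median of -0.05, within the -0.06 to 0.00 of the other chromosomes. Against day 18, the OSKM-ESC day 38 median was 0.29 on chromosome 12 and 0.02 to 0.09 elsewhere. Whether the number of copies of chromosome 12 differed was not measured. Without its genes the number of calls was 2481 in place of 2649.

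Chromosome 12 carries Msgn1, Esrrb, Dnmt3a and Rpl10l, and the last pair fell against the shift. The 6 largest changes there were those of Msgn1, Greb1, Rpl10l, Eml1, Jdp2 and Sp8. Greb1, a gene first known as an oestrogen target, was at 1.48 and 1.59 FPKM at day 25 and 9.11 and 8.66 at day 38 (log2 change 1.96 ± 0.11, adjusted p = 0.00088). Sp8, a zinc finger factor related to Sp5, was at 1.90 and 1.58 and 7.16 and 7.60, Jdp2, an AP-1 family repressor, at 1.86 and 2.00 and 8.80 and 8.96, and Eml1, a microtubule binding gene, at 3.50 and 3.90 and 18.7 and 13.5. These 6 were chosen from genes over 2-fold whose days did not overlap, so the lack of overlap was set by the choice.

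**Figure D5:**
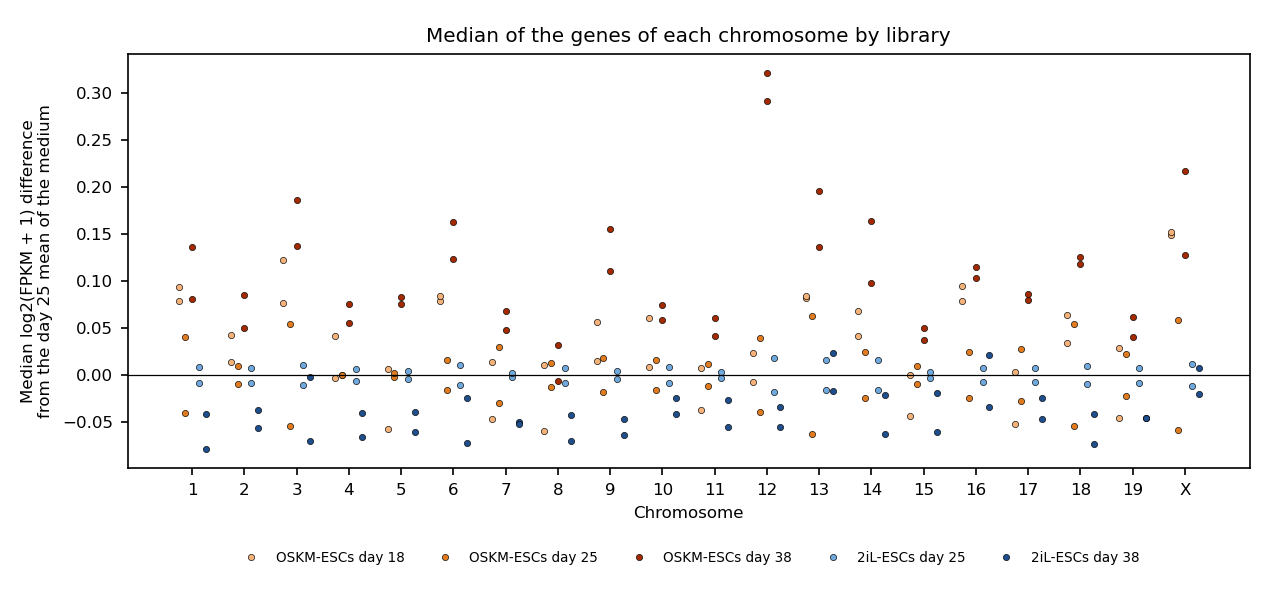
Median log2(FPKM + 1) difference from the day 25 mean of the same medium, per chromosome and library, for OSKM-ESCs at day 18, 25 and 38 and 2iL-ESCs at day 25 and 38, each point a library. Both day 38 OSKM-ESC libraries stand above the other chromosomes at chromosome 12, and the 2iL-ESC libraries do not.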

How the data were processed

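RNA was extracted with TRIzol and libraries were prepared from poly-T selected mRNA with a NEBNext Ultra kit. The submitters' processing notes name STAR 2.7.1a, StringTie 2.0 and Cuffdiff 2.2.1 with the builds GRCm38 and mm10. The authors kept uniquely mapped reads, and StringTie wrote a table per library, with the FPKM, TPM and coverage signal of each gene as deposited. No strand setting for the counting is given in the sources used here. Each library listed 55471 genes, 2 with a failed value were left out and genes listed more than once (11 identifiers) were summed. The deposited TPM was usable in 16 of the 18 libraries and was recomputed from FPKM in the other 2. The deposited coverage signal was used only as a check, its ratio to FPKM being 5.00 to 6.07 in all libraries, and it gives no read counts, so the precision from depth is unknown.

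FPKM was analysed as log2(FPKM + 1) for genes over 1 FPKM in at least 1 of the libraries compared, with limma 3.58.1 (lmFit and eBayes with trend, R 4.3.3), two-sided, with Benjamini-Hochberg adjustment over all tested genes. Each comparison used only its own groups, 2 libraries each, and the difference between media was the interaction in a fit of 8 libraries. Tables were made with Python 3.11.15, numpy 2.4.6 and pandas 2.3.3, and the model was tested on simulated data. Groups come from the labels. The samples, the gene groups and the tests were chosen with earlier results of these data known. The named genes were the 4 factors and core naive genes, up to 4 called members of each group in each direction by size of change, the 12 largest increases and decreases (adjusted p under 0.05, over 2-fold, mean of 5 FPKM or more on the higher day, no overlap), the 6 largest differences between media in each direction and the 6 largest changes on chromosome 12. Named outside these, after their values were seen, were Axin2, Ccnd1, Col1a1, Cyp26a1, Dll1, Dll3, Dnmt1, Eomes, Evx1, Fgf5, Fn1, Gclm, Gstm1, Hes7, Hormad1, Hoxc13, Lef1, Lfng, Lhx1, Mesp1, Mixl1, Mov10l1, Notum, Otx2, Pax6, Srxn1, Stra6, Sycp1, Sycp3, Tdrd1, Tex19.1, Tubb3, Uhrf1, Wnt5a and Zic2. Some genes are not reported here. Positions of genes are those of the files, and promoter windows and motif shares, both strands, are from RefSeq. Alternatives were the pseudocount (0.1), the filter, the scaling, TPM, the moderation, all 9 groups in a single fit, a replicate block, the highest value of repeated genes in place of their sum, leaving out chromosome 12, each replicate left out, and the cutoff of the study (unadjusted p under 0.05 with over 2-fold).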

Additional observations from a re-analysis of the deposited data

Results flagged for a closer look

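The changes from day 25 to day 38 differed between OSKM-ESCs and 2iL-ESCs, by the interaction in limma (adjusted p under 0.05), in 106 of 118 genes named above, 67 with the higher change in OSKM-ESCs and 39 with the lower. Values are the OSKM-ESC change less the 2iL-ESC change on the log2(FPKM + 1) scale, and most of these genes were named for their OSKM-ESC change.

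Among streak, Cdx and mesoderm genes the difference was 4.38 for Cdx1, 3.76 for Tbx6, 3.73 for Cdx2, 3.56 for Msgn1, 3.40 for Aplnr, 3.01 for T, 1.72 for Evx1, 1.69 for Lhx1, 1.22 for Eomes, 1.09 for Mixl1 and 0.89 for Mesp1. For Hox genes it was 3.78 for Hoxb9, 3.57 for the antisense RNA Hoxaas3, 3.36 for Hoxb1, 3.04 for Hoxb3 and 2.7 for Hoxb2. Segmentation genes differed by 2.99 for Meox1, 2.71 for Hes3, 2.63 for Hes7, 2.25 for Dll1, 2.17 for Dll3 and 1.61 for Lfng, and in the other direction by -1.22 for Ripply1, -1.02 for Tcf15 and -1.01 for Hes6.

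In the retinoic acid pathway the values were 3.80 for Crabp1, 3.69 for Aldh1a2, 2.21 for Stra6, 1.98 for Crabp2, 1.87 for Cyp26a1 and -1.02 for Rarg. Ligand genes gave 3.03 for Rspo3, 3.02 for Fgf8, 2.93 for Wnt3a, 1.97 for Wnt5b, 1.81 for Fgf3, 1.80 for Wnt5a, 1.65 for Wnt8a, 1.38 for Fgf15 and -1.05 for Rspo1. Targets and effectors of WNT gave 2.99 for Sp5, 2.14 for Nkd1, 1.54 for Axin2, -0.44 for Ccnd1, -1.06 for Tcf7l1 and -1.13 for Lef1. The 2iL medium holds a GSK3 inhibitor throughout, and in it Sp5 stood at 8.59 and 8.20 FPKM at day 25 and Axin2 at 19.4 and 18.7.

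Neural, mesenchymal and junction genes differed by 2.84 for Fabp7, 1.74 for Ptn, 1.35 for Cdh2, 1.05 for Snai1, 0.60 for Fn1 and -0.44 for Cdh1. Antigen presentation, stress response, imprinted and cell cycle genes differed by 2.56 for Psmb8, 2.16 for Tapbp, 1.84 for Atf3, 1.36 for Chac1, 0.96 for Asns, 2.63 for Gnas, 2.19 for Plagl1, 1.83 for Peg3, 0.86 for Igf2, 2.24 for Ccnd2 and -1.47 for Cdkn2a. On chromosome 12 the other values were 2.41 for Jdp2, 1.91 for Greb1, 1.74 for Eml1 and 1.31 for Sp8. Arg1 differed by 4.89.

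For pluripotency genes the differences were 1.45 for Klf4, 1.42 for Nanog, 1.27 for Esrrb, 1.26 for Tfcp2l1, 0.68 for Sox2, 0.61 for Myc and 0.54 for Otx2, against -2.50 for Dppa2, -1.96 for Dppa4, -1.76 for Pou3f1, -1.68 for Utf1, -1.01 for Gdf3, -0.73 for Zic2, -0.61 for Zfp42 and -0.49 for Pou5f1. DNA methylation genes gave -4.01 for Dnmt3l, -2.05 for Dnmt3b, -1.42 for Dnmt3a, -0.84 for Tet1 and 0.89 for Zfp57. Germline genes gave -1.97 for Mael, -1.86 for Rpl10l, -1.46 for Ddx4, -1.29 for Tex19.1, -1.10 for Sycp1, -0.86 for Hormad1 and -0.84 for Tdrd1. Metal and oxidative stress genes gave -2.15 for Hmox1, -1.57 for Mt2, -1.54 for Mt1, -1.25 for Nqo1, -1.20 for Gclm, -0.75 for Srxn1 and 0.88 for Gstm1. Further values were -4.05 for Enox1, -3.24 for Gadd45g, -2.41 for Wt1 and -1.77 for Rhox5. Malat1 and mt-Atp6, listed at 0 in some libraries, are given no difference.

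Of the 106 differences, 105 were refitted without OSKM-ESC day 38 replicate 1 and 97 of these stayed called, and 100 of the 106 did so without replicate 2. Those of Gclm, Hormad1, Otx2, Sp8, Srxn1 and Sycp1 were lost without either, and those of Ccnd1 and Rspo1 without replicate 1. With 1 of the other 6 libraries left out 99 to 105 stayed called, and 85 did so with all 9 groups in a single fit, in each case with 0 turned in direction.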

How the results depend on the processing

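The counts of called genes moved by more than 1.5 times under several choices, always relative to 2649 calls between day 25 and day 38 in OSKM-ESCs, 3243 in 2iL-ESCs, 3863 for the difference between media and 4192 between day 18 and day 38. Without the filter on low values the counts for OSKM-ESCs, 2iL-ESCs and day 18 to day 38 became 817, 937 and 2076, where more genes share the adjustment. With the cutoff of the study (unadjusted p under 0.05 and over 2-fold) the 4 counts were 1417, 564, 1054 and 1550. With all 9 groups in a single fit the 2iL-ESC count was 819 and that of the difference 1985, and the cause was not tested. Leaving out 1 library at a time gave 447 to 5062, 693 to 1108, 2258 to 5236 and 547 to 5655 calls, in fits with fewer samples. A pseudocount of 0.1, the use of TPM, scaling by median ratios or by quantiles, moderation without a trend, the filter in at least 2 libraries and the all-group fit kept 78.4% to 98.2% of the 2649 calls, with 0 in the opposite direction. The share of upregulated genes was 41.8% in 2iL-ESCs and 25.5% with TPM (23.2% with the cutoff of the study), 68.1% for the difference and 55.9% or 51.0% with median-ratio scaling or quantile normalization, and 62.2% from day 18 and 51.9% or 72.6% with quantile normalization or TPM. Of 102 called genes named in the text (Malat1 and mt-Atp6 aside), 76 and 78 stayed called without day 38 replicate 1 or 2, 82 without the filter, 94 in the all-group fit, all 94 outside chromosome 12 when its genes were left out and 100 or more under the other refitted settings, and 0 reversed. The chromosome 12 median less that of all genes was 0.208, and 0.238 with a pseudocount of 0.1, 0.053 without the filter and 0.186 to 0.233 with 1 library left out.

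The labels do not say whether libraries with the same replicate number on different days are paired. The correlation of same-numbered deviations was 0.15 in OSKM-ESCs of days 25 and 38, -0.03 in 2iL-ESCs and -0.03 for days 18 and 38. With the replicate number as a block the counts were 3294 (2189 upregulated and 1105 downregulated), 2284, 3510 and 3607, within 1.5 times of those without it, and none of the 102 named calls was lost. The depth of the libraries is unknown, with 2 libraries per group no single-gene permutation test can pass, and genes under 1 FPKM were not tested.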
